A study of Mus musculus with 207 samples.

Results

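Fatty acid oxidation genes of the cecum were described as 8 genes: Cpt1a, Acadm, Acadl, Hadha, Acaa2, Ehhadh, Pdk4 and Angptl4. They were taken by gene name from the array's annotation, and all of their probes were used, 15 of the 45281 probes (8 of 19057 named genes). RNA was measured on 1 Illumina BeadChip array for each of 207 mice of the Collaborative Cross (CC), a breeding population that mixes the genomes of 8 founder strains. Sex was labelled female for 101 mice and male for 104, and was not clear for 2 mice of line 749. The leading number of each animal label was taken for its breeding line. There were 113 such lines, and 92 of them (185 mice) had both sexes. All were adults fed chow with no treatment named, the lines had 1 to 3 mice each, and they were only partly inbred. Same-sex siblings were housed together or mice were kept singly, so cage and line cannot be told apart within a sex. RNA came from cells released from the cecum with EDTA. No age was given for single mice. The last number of the label fell into a high series (90 mice) and a low series (116 mice), with 1 mouse in neither. What the series stand for was not stated, and they were treated as a possible batch.

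Fatty acids are burned in mitochondria in a cycle that removes a pair of carbons at each turn. Carnitine palmitoyltransferases bring long chains into the mitochondrion, acyl-CoA dehydrogenases take out hydrogen, the trifunctional protein and thiolases complete the turn, and peroxisomes run a similar cycle. PPAR nuclear receptors are known to raise many of these genes, and Pdk4 and Angptl4 are among their familiar targets. Colonic epithelium is known to burn butyrate made by bacteria and to make ketone bodies from it. None of the 8 genes is a dedicated ketogenic enzyme, so the data below concern oxidation and PPAR targets. Of a fixed list of 6 genes of ketone body synthesis and use, 4 were measured and 2 were above background, Bdh1, which interconverts the ketone bodies, and Oxct1, which starts their use.

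Promoter sequences of 6 of the genes were found in the RefSeq table (GRCm38.p6), from 250 bases before to 50 bases after the start. Ehhadh and Pdk4 are shown because their levels went together in both sexes (below), and Acadl because it had positive correlations with both. Capitals mark the GC box GGGCGG and the nuclear receptor half-site AGGTCA on either strand. The windows lie at chr16:21787785-21788084 for Ehhadh, chr6:5496229-5496528 for Pdk4 and chr1:66863260-66863559 for Acadl, all on the minus strand.
Ehhadh: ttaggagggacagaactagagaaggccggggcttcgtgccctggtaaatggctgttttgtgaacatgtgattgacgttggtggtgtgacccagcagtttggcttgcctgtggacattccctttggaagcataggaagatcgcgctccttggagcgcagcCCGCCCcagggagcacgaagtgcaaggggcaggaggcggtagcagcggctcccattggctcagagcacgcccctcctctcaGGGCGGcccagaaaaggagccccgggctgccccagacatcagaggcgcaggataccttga
Pdk4: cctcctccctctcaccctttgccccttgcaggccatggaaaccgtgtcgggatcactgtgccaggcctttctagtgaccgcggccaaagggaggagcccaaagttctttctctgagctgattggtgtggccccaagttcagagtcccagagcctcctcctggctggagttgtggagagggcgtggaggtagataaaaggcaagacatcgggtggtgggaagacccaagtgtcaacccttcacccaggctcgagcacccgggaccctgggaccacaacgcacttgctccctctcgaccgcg
Acadl: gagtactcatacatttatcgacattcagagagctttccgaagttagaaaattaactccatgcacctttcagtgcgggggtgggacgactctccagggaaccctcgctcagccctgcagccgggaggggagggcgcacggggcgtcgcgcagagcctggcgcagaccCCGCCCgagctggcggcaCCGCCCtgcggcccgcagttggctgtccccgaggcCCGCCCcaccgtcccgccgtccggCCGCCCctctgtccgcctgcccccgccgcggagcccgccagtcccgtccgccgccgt

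The GC box was matched 2 times in the Ehhadh window, at bases -91 and -10 from the start, 4 times in the Acadl window and not in the Pdk4 window. It was found in 4 of the 6 windows of members and in 35.7% of all 32851 promoters of the same length. The half-site AGGTCA was in none of the Ehhadh, Pdk4 and Acadl windows. It was matched once in each of 2 other members, Cpt1a and Acadm, and in 16.3% of all promoters. The Cpt1a match lay at base -94 (chr19:3323051-3323350, plus strand) and the Acadm match at base -249 (chr3:153944594-153944893, minus strand), shown here with their neighbouring bases.
Cpt1a: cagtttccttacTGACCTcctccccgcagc
Acadm: gTGACCTtcgggctccggt

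A pair of half-sites with 1 base between, AGGTCANAGGTCA, is the form PPAR receptors are known to bind. It was in none of the 6 members' windows and in 0.0396% of all promoters. These matches describe letters in a short window only.

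The arrays carried 7 of the 8 genes above background. The background limit was a mean log2 intensity of 6.33, below which lay 95% of 1540 probes for chemosensory receptors (olfactory, vomeronasal and taste), and 20320 probes (44.9%) exceeded it. Every intensity under 16 was raised to 16 (0.761% of the values), so that 4.0 is the lowest possible log2 value. Values below 0 occurred on 8 arrays, of 6 females and 2 males, and results that rest on them are given with and without them. Array medians lay between 41.5 and 103.7. Markers of absorptive colonocytes (10 of 10 measured), goblet cells (9 of 10) and enteroendocrine cells (7 of 8) were above background, and so were 10 of 10 smooth muscle and 8 of 8 fibroblast genes. In such bulk RNA, fewer cells of a type and less RNA per cell cannot be told apart. Xist and the Y-linked genes both went against the labelled sex in 4 of 205 mice, which were kept under their labels.

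Cpt1a, which makes acylcarnitine at the outer mitochondrial membrane and limits the entry of long chains, was not above background with either of its 2 probes. The brighter one lay between 5.93 and 7.58 on the log2 scale in females (median 6.27) and between 5.45 and 6.75 in males (median 6.25). Its level was over the background limit in 71 of 207 mice, and the dimmer probe's in 55. The values of both sexes overlapped almost wholly and stayed near the limit, so differences of Cpt1a between mice are differences of a dim signal.

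Acadm, the dehydrogenase of medium chains, was above background in all 207 mice. Its log2 level was between 9.68 and 12.75 in females (median 11.87) and between 10.11 and 12.87 in males (median 12.01). The level of a mouse at the 90th percentile was 2.60-fold that of a mouse at the 10th percentile. Acadl, the dehydrogenase of long chains, had 3 probes. The brightest gave 4.0 to 9.28 in females (median 7.99) and 4.0 to 9.73 in males (median 7.97), and the 90th percentile was 2.64-fold the 10th. Both mice at 4.0 were on arrays with values below 0, and without those arrays the lowest level was 6.68.

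Hadha, the alpha subunit of the mitochondrial trifunctional protein, had only 1 probe, so its values could not be compared with a further probe. That probe was annotated to a cDNA record and not to a RefSeq transcript. Hadhb, the other subunit, had a mean log2 level of 12.27 against 7.75 for Hadha, with r of 0.115 between them over mice. How well the probe reports the Hadha transcript was not tested. Hadha was above background in all mice. Its log2 level was between 6.47 and 8.95 in females (median 7.86) and between 6.39 and 8.93 in males (median 7.77), with a 2.79-fold difference between the 90th and the 10th percentile. Acaa2, the mitochondrial thiolase that closes the turn, had 4 probes, all above background. The brightest lay between 4.0 and 10.79 in females (median 9.64) and between 7.22 and 10.81 in males (median 9.59), a 3.21-fold difference between the 90th and the 10th percentile. On the 8 arrays with values below 0 this probe's median was 8.31, against 9.64 on the other 199, and the 3 lowest mice of all, a female of line 5515 at 4.0, a female of line 2227 at 5.95 and a male of line 3011 at 7.22, were on those arrays.

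Ehhadh, the bifunctional hydratase and dehydrogenase of peroxisomes, was measured between 6.58 and 9.06 in females (median 7.99) and between 6.80 and 8.97 in males (median 7.99). The 90th percentile was 2.12-fold the 10th. Pdk4, the kinase that shuts off pyruvate dehydrogenase and so spares glucose, was measured between 6.89 and 10.61 in females (median 8.97) and between 7.03 and 10.97 in males (median 9.19). The 90th percentile was 3.41-fold the 10th. Angptl4, a secreted inhibitor of lipoprotein lipase, had a first probe between 6.28 and 9.58 in females (median 7.16) and between 5.69 and 8.71 in males (median 7.09), and a second probe not above background (median 6.13 in females and 6.13 in males). The sexes overlapped over nearly the whole range of each gene.

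**Figure D1:**
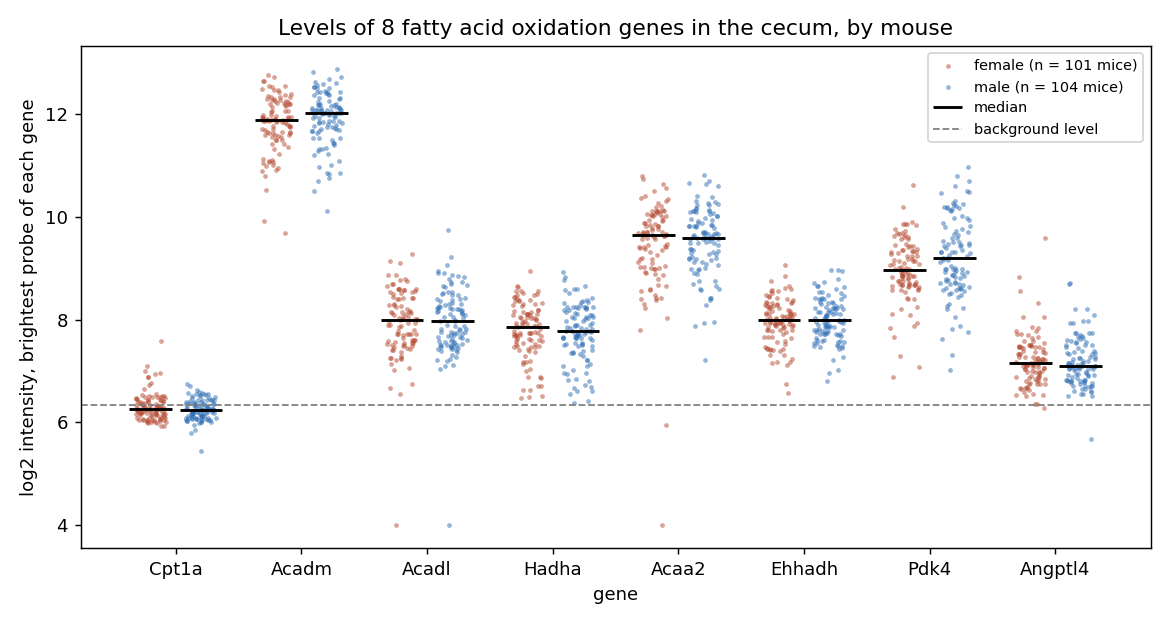
Log2 intensity of the brightest probe of each of the 8 genes (vertical axis) in 101 females (left, red) and 104 males (right, blue), 1 point a mouse, with the median as a black bar and the background level of 6.33 as a dashed line. Cpt1a lies around the background level, and the points at 4.0 for Acadl and Acaa2 belong to arrays with values below 0.

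None of the 8 genes differed between the sexes past the threshold. Females and males were compared with limma over all probes, which asked whether sex shifts these transcripts, and 16 of 45281 probes (0.0353%) passed an adjusted p of 0.05 by Benjamini-Hochberg. Pdk4 was nearest among the members, with a mean log2 level of 8.96 (SD 0.61) over the 101 females against 9.22 (SD 0.78) over the 104 males, a female minus male difference of -0.26 (SE 0.10). Its limma p was 0.00869 before and 1 after adjustment. The difference was -0.31 in the high series and -0.19 in the low series, and the interaction of sex with series had a limma p of 0.543 for Pdk4. No probe passed the adjusted threshold for that interaction (2260 had an unadjusted p under 0.05, none of them a member's). The other 7 genes' brightest probes differed by between -0.10 (Acadm) and 0.06 (Cpt1a). For Acaa2 the interval of the difference was -0.30 to 0.13, so a shift of any size within it remains possible.

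The number series did not separate the members either. No probe of 45281 (0%) passed the adjusted threshold between the high and the low series in limma with sex as a covariate, although 1829 had an unadjusted p under 0.05. Angptl4 averaged 7.27 ± 0.45 in the high series (SD, n = 90) and 7.14 ± 0.51 in the low series (SD, n = 114), with a difference of 0.14 (SE 0.07), a limma p of 0.0478 and an adjusted p of 0.907. Without the 8 arrays the limma p was 0.112, and with the line as a replicate block in limma it was 0.053. Mice of a line fell in the same series, so single mice are not independent in this comparison. Acaa2 averaged 9.56 ± 0.87 in the high series and 9.39 ± 0.72 in the low series, a difference of 0.17 (SE 0.11). Values of the 2 series overlapped for every member.

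A line effect passed the threshold for Acaa2 and for no other member. For each probe the sex mean was removed and a line intraclass correlation (ICC) was computed over the 92 lines, which is near 1 where mice of a line share their level and near 0 where they differ as much as mice of different lines. By an F-test of line with Benjamini-Hochberg adjustment over all probes, 5.96% of probes had a line effect (12.5% of those above background). Among the members' brightest probes, 1 of 8 did, that of Acaa2, with an ICC of 0.342 (95% interval 0.151 to 0.510, adjusted p = 0.00865). It was 0.319 without the 8 arrays (adjusted p = 0.0164). Within the high series alone it was 0.328 and within the low series alone 0.362, where neither passed the adjusted threshold with fewer lines. Line means of Acaa2 lay between 6.30 and 10.71, with a median of 9.61. The highest was that of line 491, whose female was at 10.74 and whose male was at 10.68. The lowest was that of line 5515, 1 of whose 2 mice was on an array with values below 0.

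Acadm and Ehhadh had intervals above 0 but did not pass the adjusted threshold. Their ICC was 0.253 (0.0536 to 0.433, adjusted p = 0.0927) and 0.242 (0.0425 to 0.424, adjusted p = 0.114). With only the probes above background tested, Acadm passed at an adjusted p of 0.0458. The lowest Acadm level of all mice was that of the female of line 1141, whose male had 12.72. Line means of Acadm ran from 10.59 in line 5232 (2 mice) to 12.68 in line 1009 (1 mouse). Those of Ehhadh ran from 7.07 in line 1141 (2 mice) to 8.95 in line 291 (1 mouse). Acadl had an ICC of 0.187, Cpt1a of 0.13, Hadha of 0.0995, Pdk4 of 0.0986 and Angptl4 of 0.0816, each with an interval that took in 0. Angptl4 shows how far mice of a line could lie apart: in line 3513 the female had 9.58, the highest level of all mice, and the male had 7.56. The median ICC of the 8 brightest probes was 0.156, beside 0.0791 over all probes above background. These are unlike sets, since only the brightest probe of each member was taken. The members' further probes had ICCs between -0.0853 and 0.0108. By the study's methods, probes over variants between the founders were taken out before mapping, and the deposited table, whose probe number fits the state before that step, still holds them. Those probes could not be picked out by name here, so a line effect cannot be told apart from a variant under a probe.

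**Figure D2:**
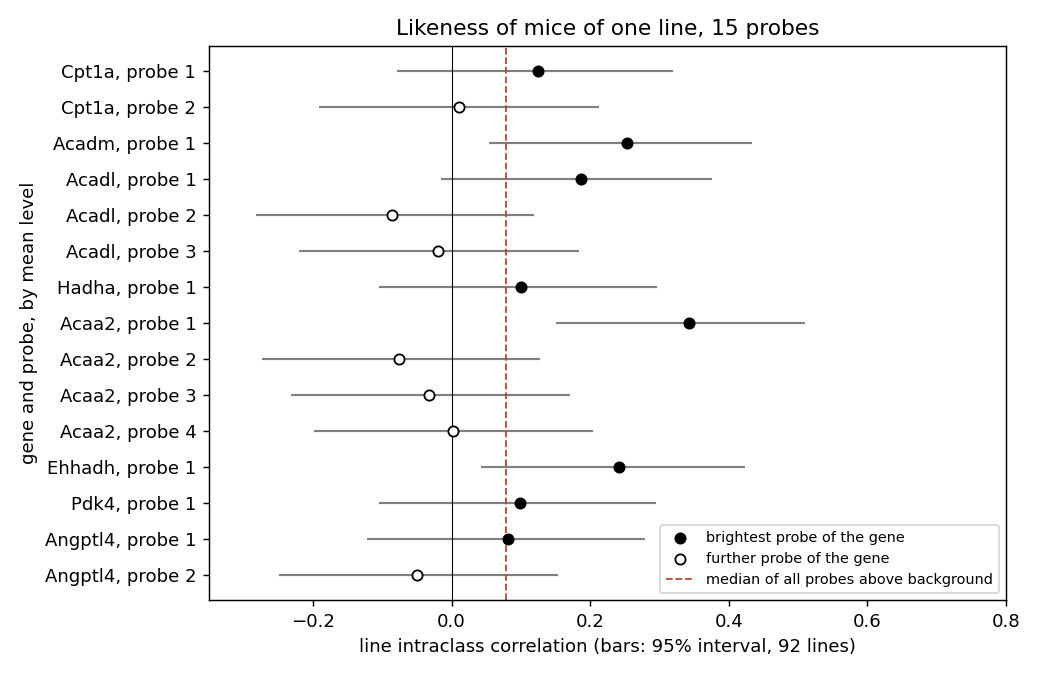
Line ICC (horizontal axis) of the 15 probes over 92 lines with 95% intervals, filled for the brightest probe of each gene and open for further probes. The brightest Acaa2 probe is at 0.342, and the 3 further Acaa2 probes lie between -0.0762 and 0.00213.

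The line effect of Acaa2 was that of 1 probe of 4. Probe ILMN_2788984, the brightest, had the ICC of 0.342, and the other 3 had ICCs of -0.0762, -0.032 and 0.00213, with adjusted p of 0.774 or more. Those 3 probes moved together over 207 mice, with r between 0.939 and 0.963, and with the brightest probe they had r between 0.348 and 0.511. In the plot of females against males of a line, the points of the brightest probe lean towards the diagonal with much scatter, and those of the second probe do not.

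**Figure D3:**
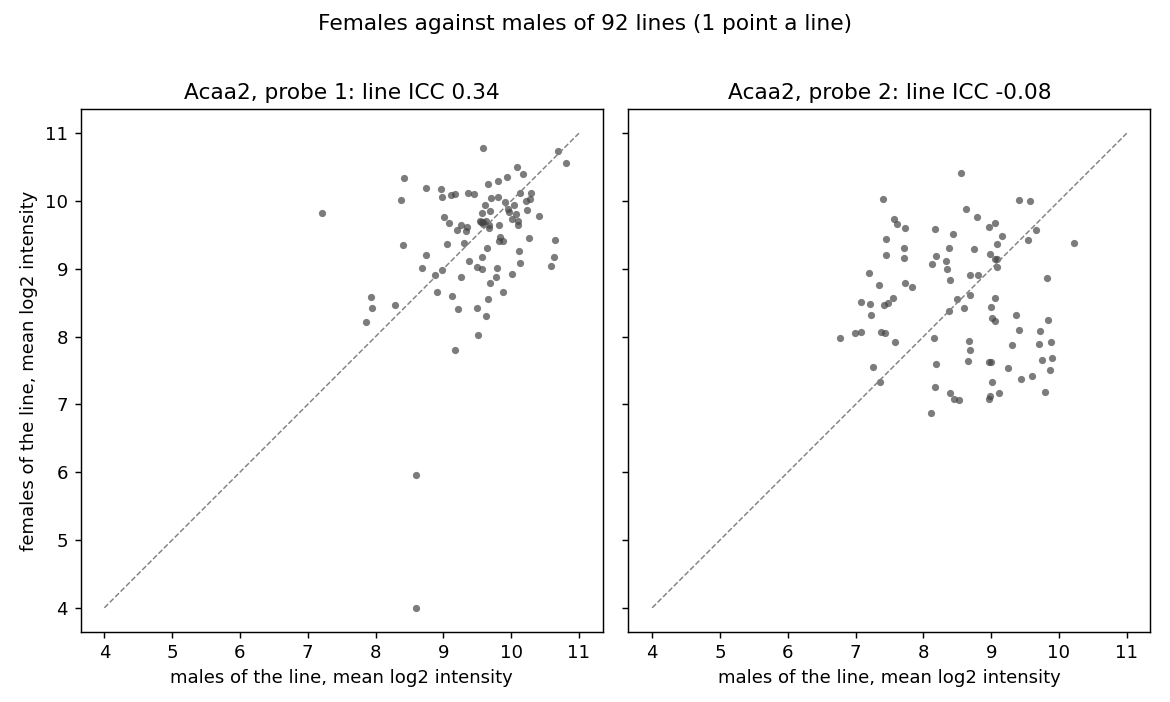
Mean log2 intensity of the females (vertical axis) against the males (horizontal axis) of each of 92 lines, for the brightest Acaa2 probe (left) and the second one (right), with the line of equal levels dashed. The ICC is 0.342 on the left and -0.0762 on the right, and the 2 lowest female values on the left are from arrays with values below 0.

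The 3 further Acaa2 probes were closer to a probe of another member. Acadl also split: its second probe, ILMN_2689473, had r of 0.885, 0.907 and 0.899 with those 3 Acaa2 probes, but 0.371 with the brightest Acadl probe. Its ICC was -0.0853. These 4 probes were also close to genes of other functions. Ugt1a7c, a glucuronosyltransferase, was among the 5 nearest genes of all 4, with r from 0.880 to 0.935, and Hnrnpk, an RNA-binding protein, had r of 0.930 with the second Acadl probe. Marker lists moved with the 4 probes as well. The 5 measured stem and proliferation markers above background, averaged, had r between 0.516 and 0.600 with them, and the 9 goblet markers had r between -0.580 and -0.548. Other lists did too: the 2 of 5 measured exocrine pancreas markers above background (Cela1 and Amy2a5) had r between -0.559 and -0.457, the adipocyte list between -0.427 and -0.368 and the enteroendocrine list between 0.303 and 0.355. With the brightest Acaa2 probe the proliferation list had r of 0.281 (0.0844 without the 8 arrays), the goblet list -0.0565 and the pancreas list -0.342. In females the averaged proliferation markers lay between 6.27 and 8.54 and in males between 6.08 and 8.53, and the goblet markers between 9.76 and 12.64 in females and between 10.18 and 12.84 in males. Their part in the result was not tested. The third Acadl probe went with neither group, with r of 0.334 with the second and 0.269 with the first, and Cpt1a's 2 probes, both dim, had r of -0.176 with each other (0.346 without the 8 arrays).

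**Figure D4:**
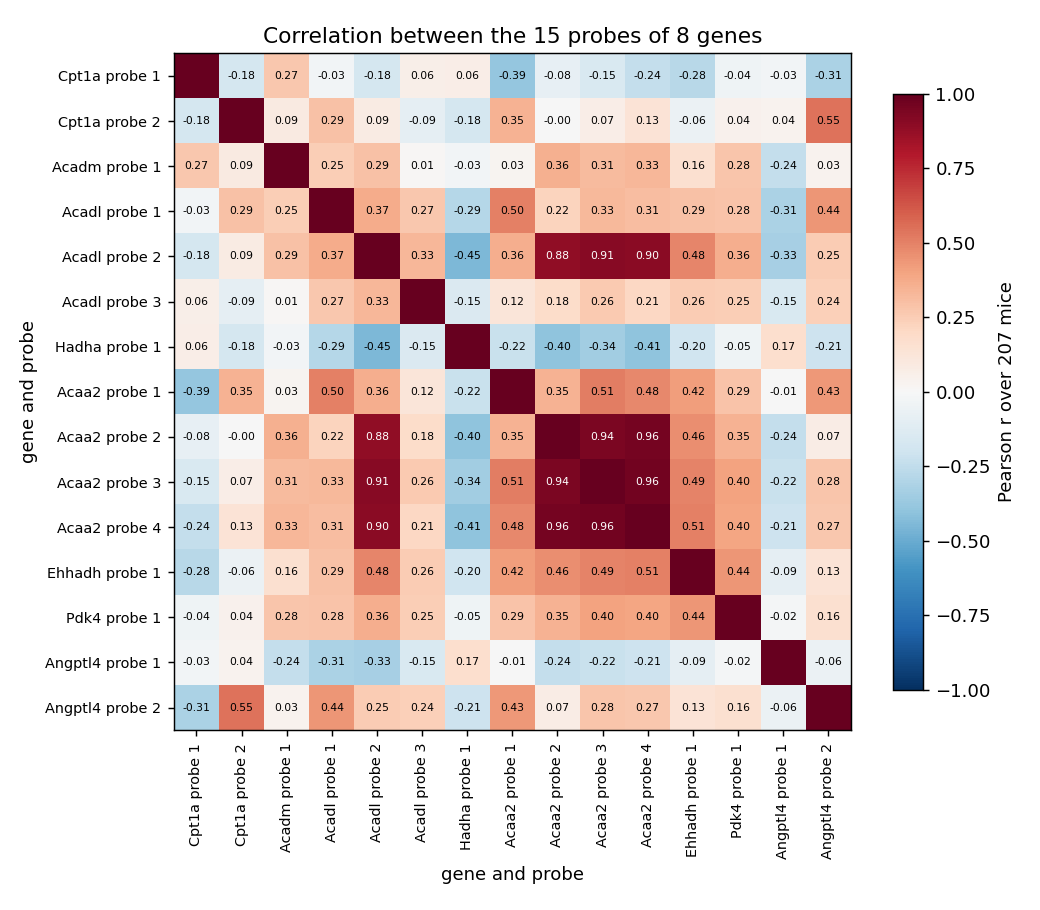
Pearson r over 207 mice between the 15 probes of the 8 genes, red for positive and blue for negative. The block of Acaa2 probes 2 to 4 with Acadl probe 2 stands at 0.885 or more, while the brightest Acaa2 probe has r of 0.348 to 0.511 with its own gene's other probes.

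The 8 genes did not rise and fall as a group. Over 207 mice and the brightest probe of each, the 28 pairs had a median r of -0.0124, 13 were positive, 3 had r of 0.3 or more and 2 had -0.3 or less. These are descriptions, since mice of a line are not independent and all arrays share a normalization. Line means, 113 points, were used for tests.

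Ehhadh went with Pdk4 whether or not the 8 arrays were included. Their r was 0.441 over 207 mice (Spearman rho 0.357), 0.435 without the 8 arrays, 0.440 in females and 0.451 in males, 0.455 in the high series and 0.394 in the low series. Over line means r was 0.462 and rho 0.430, each with a two-sided permutation p of 1e-05, the smallest that 100000 permutations can give, and 0.415 without the 2 lines farthest from the median of Ehhadh. In a limma regression of every probe on Ehhadh over line means, Pdk4 had an adjusted p of 2.72e-05. Of 20319 probes above background, Ehhadh ranked 24 in its r with Pdk4, and Pdk4 ranked 316 in its r with Ehhadh. The proliferation list had r of 0.364 with Ehhadh (0.358 without the 8 arrays) and 0.288 with Pdk4 (0.224 without them), and its part in the pair was not tested.

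Acaa2 and Ehhadh had an r of similar size, but more probes were as close to Acaa2: Ehhadh ranked 4006 of 20316 in its r with Acaa2, 31.3% of those probes had r of 0.3 or more with it, and Acaa2 ranked 424 of 20319 in its r with Ehhadh. Their r was 0.422 over mice (rho 0.468), 0.461 without the 8 arrays and 0.489 over line means (rho 0.453, permutation p = 1e-05 for both, r without the 2 farthest lines 0.461), and all 4 Acaa2 probes had r of 0.422 to 0.508 with Ehhadh. The pair of Acaa2 and Pdk4 was looser, with r of 0.286 over mice, 0.191 without the 8 arrays and 0.293 over line means (permutation p = 0.00168, rho 0.245 with p = 0.00917, r without the 2 farthest lines 0.252). Acadl and Acaa2 had the highest r of all pairs, 0.501, but 0.318 without the 8 arrays, against a rho of 0.342 with them. Over line means their r was 0.500 (permutation p = 1e-05) and rho 0.355 (p = 0.00017), and r was 0.343 without the 2 lines farthest from the median of Acadl. Acadl with Ehhadh had r of 0.292 over mice and 0.304 over line means (permutation p = 0.00098, rho 0.263 with p = 0.00499, r without the 2 farthest lines 0.264). Acadl with Pdk4 had r of 0.284 over mice and 0.209 over line means (permutation p = 0.0256, rho 0.239 with p = 0.0111, r without the 2 farthest lines 0.215).

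**Figure D5:**
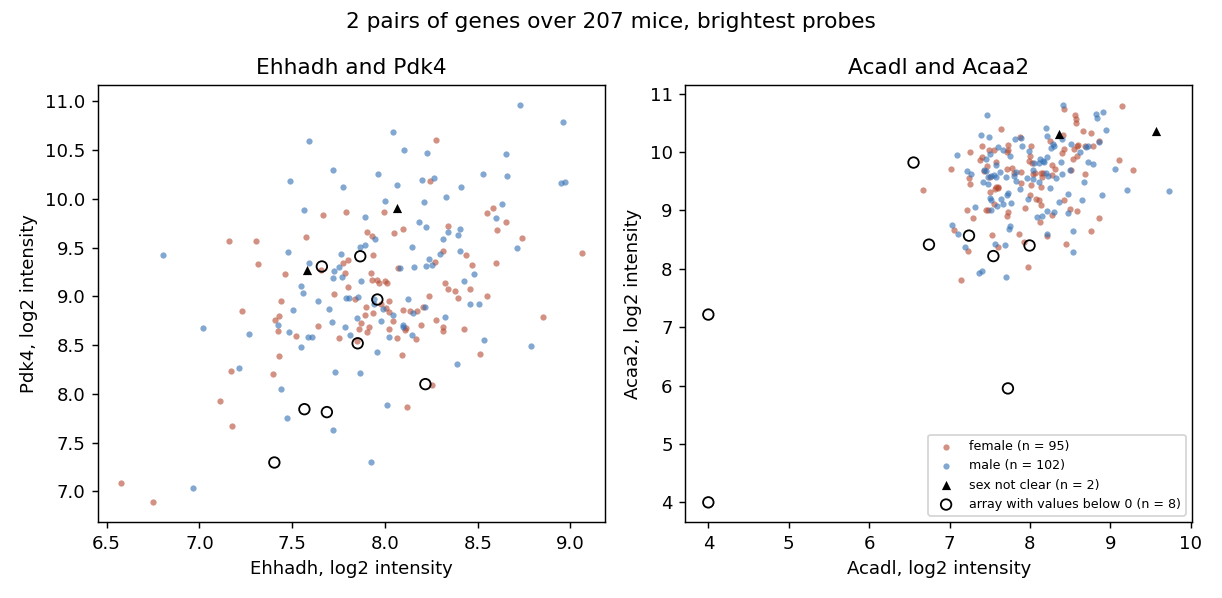
Log2 intensity of Pdk4 against Ehhadh (left) and of Acaa2 against Acadl (right) in 207 mice, females red, males blue, the 2 mice of unclear sex as triangles and the 8 arrays with values below 0 as open circles. On the left these circles lie among the other points, with r of 0.435 without them, and on the right 3 lie far from the other points, with r of 0.318 without them.

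Some pairs ran against each other. Hadha, by its single probe, had r of -0.285 with Acadl, -0.225 with Acaa2 and -0.199 with Ehhadh over mice. Over line means r with Acadl was -0.386 (permutation p = 6e-05, rho -0.353 with p = 0.00017), r with Acaa2 was -0.271 (permutation p = 0.00402, rho -0.256 with p = 0.00642) and r with Ehhadh was -0.223 (permutation p = 0.0177, rho -0.185 with p = 0.0497), and without the 2 farthest lines these r were -0.393, -0.232 and -0.245. In the limma regression on Hadha over line means, 55.2% of the other 45280 probes passed the adjusted threshold, 8.09% with a positive sign. The other passing probes were negative, among them those of Acadl, Acaa2 and Ehhadh, 3 of the 7 other members. With all arrays and no further normalization, negative association with Hadha was thus common over all probes. After quantile normalization 24.1% passed, 11.4% with a positive sign, and without the 8 arrays 37.6% passed, 7.78% with a positive sign. The same 3 members were negative in both, so how common it was beside them depended on the processing. The exocrine pancreas list also moved with these genes: its r was 0.349 with Hadha, -0.401 with Acadl, -0.342 with Acaa2 and -0.233 with Ehhadh (0.365, -0.314, -0.273 and -0.236 without the 8 arrays). Its 2 markers above background averaged between 6.86 and 11.22 in females and between 6.65 and 14.54 in males, and Prss2, Cpa1 and Ctrb1 were not above background. Its part in these pairs was not tested. The brighter Cpt1a probe had r of -0.386 with Acaa2 and -0.276 with Ehhadh, and 0.268 with Acadm, though it was at background. Without the 8 arrays these r were -0.313, -0.309 and 0.376. The brighter probe was annotated to a cDNA record and the dimmer one to a RefSeq transcript. The dimmer Cpt1a probe did not share these values. Its r was 0.351 with the brightest Acaa2 probe (-0.009 without the 8 arrays), -0.0578 with Ehhadh and 0.0897 with Acadm. In the regression on the brighter Cpt1a probe, 47.4% of the other probes passed, 31.9% with a positive sign. Acaa2 and Ehhadh passed with a negative sign. Angptl4 had r of -0.313 with Acadl and -0.239 with Acadm, and between -0.088 and -0.00687 with Pdk4, Acaa2 and Ehhadh. Acadm had r of 0.279 with Pdk4 and 0.246 with Acadl over mice, but 0.127 and 0.163 over line means (permutation p = 0.179 and 0.0832). In all, 28 pairs were computed.

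Each member was also set beside all probes, since on these arrays many probes moved with any one of them. In the limma regression over 113 line means, the share of the other 45280 probes with a positive association at an adjusted p under 0.05 was 31.9% for Cpt1a, 2.79% for Acadm, 55.5% for Acadl, 8.09% for Hadha, 50.1% for Acaa2, 13.0% for Ehhadh, 24.0% for Pdk4 and 31.0% for Angptl4. Against this, 3 of the other 7 members were positively associated with Ehhadh (Acadl, Acaa2 and Pdk4), 3 with Acadl (Acaa2, Ehhadh and Pdk4), 3 with Acaa2 (Acadl, Ehhadh and Pdk4), 2 with Pdk4 (Acaa2 and Ehhadh) and 1 with Cpt1a (Acadm). None was with Acadm, Hadha or Angptl4. The count for Cpt1a was a smaller share than that of all probes, and the count for Pdk4 was near it. Without the 8 arrays, only 8 probes were positively associated with Pdk4 and none of them was a member, although Pdk4 still passed in the regression on Ehhadh (adjusted p = 3e-04, against 0.0662 for Ehhadh in the regression on Pdk4). For Acadl and Acaa2 the members' counts were no larger a share than that of all probes with all arrays, but the share of all probes fell to 6.16% for Acadl and 9.85% for Acaa2 without the 8 arrays, where 2 and 3 of the 7 members were associated, and to 8.58% and 25.8% after quantile normalization, again with 2 and 3 of 7.

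The genes nearest to each member over all mice belonged to several functions. Nearest to Acadm was Etfa (r = 0.642), which takes up the electrons of acyl-CoA dehydrogenases, followed by Gmcl1, Rnf34, Atp1b1 and Stx7. Hadha was nearest to Dlst (0.819), a subunit of the oxoglutarate dehydrogenase of the citric acid cycle, Ldah, Pex13 (0.802), a peroxisomal import protein, Khdc4 and Atp5a1, a subunit of the ATP synthase. The brightest Acaa2 probe was nearest to Akr1a1 (0.783), Aldoa (0.758), an enzyme of glycolysis, Atp5d, Cluh and Hfe, and these r fell to between 0.541 and 0.666 without the 8 arrays. The brightest Acadl probe was nearest to Txn2 (0.752), the mitochondrial thioredoxin, Bag6, Hectd3, Taf12 and Larp1. Ehhadh was nearest to Atg3 (0.637), which conjugates lipid in autophagy, Pcbp2, Rab5a, Ctnnb1 and Tmed2. Nearest to Pdk4 were Eps8 (0.502), Mapk6, Ppcs, Mtch2 and Ipmk, and 7.55% of the probes above background had r of 0.3 or more with it. For Cpt1a, at background, they were Fgf17 (0.761), Gprc5c, Vangl2, Calr3 and Pml.

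Angptl4 was nearest to Nnmt (0.587), Apoc1 (0.585), Cox8b (0.581), Prkar2b (0.575) and Col8a1 (0.569), and without the 8 arrays to Prkar2b (0.623). Its r with averaged markers was highest for the small intestinal enterocyte list (0.436, 6 of 8 measured markers above background) and the adipocyte list (0.427, or 0.467 without the 8 arrays). Of 7 measured adipocyte markers, 4 were above background, Adipoq, Lep, Cidec and Lipe, and 3 were not, Plin1, Fabp4 and Retn. The average of those 4 lay between 6.47 and 9.72 in females and between 6.54 and 8.92 in males, and that of the 6 enterocyte markers between 5.51 and 13.57 in females and between 5.61 and 14.08 in males. Adipoq, the adiponectin gene, had r of 0.417 with Angptl4 and Lep, the leptin gene, 0.349, while Cidec and Lipe had 0.120 and 0.101. The part of fat tissue or small intestinal cells in the Angptl4 level was not tested.

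Line effects in the wider pathway were about as frequent as among probes above background. From 11 lists of 89 genes around fatty acid oxidation, 82 were measured and 72 were above background. A line effect was found for 11 of the 82, beside 12.5% of the probes above background, and the largest were those of Dlat (ICC 0.478), a subunit of pyruvate dehydrogenase, Acaa1b (0.447), a peroxisomal thiolase, and Acot1 (0.415), an acyl-CoA thioesterase. By list these were 2 of 8 genes from hydratase to thiolase (Acaa2 and Echs1, the short-chain hydratase), 2 of 9 peroxisomal genes, 2 of 10 PPAR targets, 2 of 7 genes of pyruvate dehydrogenase and its kinases, 1 of 8 acyl-CoA synthetases, 1 of 7 acyl-CoA dehydrogenases and 1 of 9 genes of fatty acid synthesis. None was found among 8 genes of the carnitine shuttle, 3 of electron transfer, 4 of ketone bodies and 9 PPAR regulators. The median ICC of the 82 was 0.0814, and that of the PPAR regulators was 0.0329. None of the 82 differed between the sexes or between the number series past the threshold, with 5 and 8 at an unadjusted limma p under 0.05. Of all 45281 probes, 472 and 1829 had such an unadjusted p. Of the 20320 probes above background, 331 and 1034 did.

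Over mice, the pathway genes with the highest mean r with the members were Scp2 (0.205), a peroxisomal thiolase and sterol carrier, Abcd3 (0.199), which imports acyl-CoA into peroxisomes, and Etfdh (0.189), which passes electrons to the respiratory chain. The lowest were Acot2 (-0.0818), Hadha (-0.0784) and Angptl4 (-0.0749), the last 2 being members themselves.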

How the data were processed

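Illumina Mouse WG-6 v2 BeadChips were run on cecal RNA, 1 for each of 207 mice. By the study's methods, cells were released from the cecum with EDTA and RNA was taken from the pellet. The authors deposited linear intensities for 45281 probes, made with BeadStudio 3.0.19 (rank-invariant normalization, no background subtraction), from before the removal of probes over founder variants. Values were raised to at least 16 before the log2 step. Probes were named by the platform's gene column, with older symbols replaced from RefSeq's gene table (GRCm38.p6), and 34885 probes had 1 name, 18 several and 10378 none. Each gene was represented by its probe with the highest mean, and every probe of a member was reported.

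The members and gene lists were chosen with earlier results of these data known. Named are the members, the 5 genes nearest to each by r over all mice, and pathway genes past a threshold (the 3 largest where over 6 passed) or with the 3 highest or lowest mean r. Sexes, number series and associations were fitted with limma 3.58.1 (lmFit, eBayes) in R 4.3.3 over all probes. Line ICC, correlations and permutations used Python 3.11.15, numpy 2.4.6, pandas 2.3.3 and scipy 1.17.1, and figures matplotlib 3.10.9. The sex, association and line tests were first tested on simulated data with known changes. The line pairs the sexes, since its mice share ancestry: over 91 lines with 1 female and 1 male, their deviations had a median correlation of 0.214, with 64.8% over 0.1. The labels do not say more on whether mice were littermates. The number of arrays limits the precision. Fits with a sex term leave out the 2 mice whose sex is unclear, and genotypes and microbial abundance were not analysed here.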

Additional observations from a re-analysis of the deposited data

How the results depend on the processing

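The sex and number series comparisons called no member under any alternative run (quantile normalization, subtraction of each array's 5th percentile, a floor of 32, without the 8 arrays with values below 0, only probes above background, the line as a replicate block, and for sex the series as a covariate, each series alone, and, chosen after seeing the data, without the 4 mice on the other sex's side). Over all probes, 32 in place of 16 differed between the sexes without the 8 arrays, and 1 in place of 0 between the series after quantile normalization. With the line as a replicate block (consensus correlation 0.0851) no call of a member changed, and the Pdk4 difference between females and males was -0.26. Signs turned for differences near 0: Acadl between the sexes was 0.0264 in the low series alone, Acaa2 0.00779 without the 8 arrays, and Cpt1a between the series -0.0182 after quantile normalization, -0.0525 after subtraction and -0.0137 without the 8 arrays.

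The line effect was called for 1 member, for 2 after quantile normalization and for 2 among probes above background only, for 5 with 10 principal components removed (Acadm, Acaa2, Ehhadh, Pdk4 and Angptl4), and for 0 in the low and 0 in the high series alone, where there were fewer lines. Over all probes the count was 2697, and it was 4166, 4988 without the 8 arrays, 8560 with the components removed, and 1578 and 1339 in the low and the high series. The Acaa2 ICC stayed between 0.319 and 0.467 under the alternatives run. The ICC of Cpt1a was -0.0459 after subtraction and -0.0426 in the high series, that of Hadha -0.0727 and of Pdk4 -0.0312 in the low series, and that of Angptl4 -0.245 in the high series. The cause was not tested.

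The 3 pairs with r of 0.3 or more became 5 without the 8 arrays, 8 in females only, 8 in the high series only and 6 when a gene's probes above background were averaged, but 2 with the 10 components removed. The 2 pairs with r of -0.3 or less became 5 without the 8 arrays, 7 in the high series only, 4 after quantile normalization and 0 with the 10 components removed. There were 12 positive associations between members, and 10 after quantile normalization and 10 without the 8 arrays. The counts over all probes moved further: with Cpt1a 23154 without the 8 arrays in place of 14447, with Acadm 3956 after quantile normalization and 12203 without the 8 arrays in place of 1264, with Acadl 3886 and 2790 in place of 25152, with Acaa2 11663 and 4458 in place of 22664, with Pdk4 1749 and 8 in place of 10875, and with Angptl4 1409 and 3746 in place of 14020.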

Other observations

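The 2 mice of line 749 whose sex was not clear entered the correlations but no comparison of sexes. The lower and the higher of their levels, brightest probe of each gene, were 11.35 and 12.03 for Acadm, 8.36 and 9.57 for Acadl, 6.99 and 7.51 for Hadha, 10.31 and 10.37 for Acaa2, 7.58 and 8.06 for Ehhadh, 9.27 and 9.91 for Pdk4, and 6.46 and 7.30 for Angptl4. The mean of both made line 749 the highest of the 113 lines for Acadl, at 8.97.

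The sign of the r between Cpt1a and Acadl differed between subsets of the mice, -0.288 in females and 0.355 in males, and -0.393 in the high and 0.246 in the low series. Without the 8 arrays it was 0.0861 in the high and 0.210 in the low series. The differences themselves were not tested, and Cpt1a was at background.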
